A study of Mus musculus with 12 samples.

Results

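Long noncoding RNAs are transcripts without a translated reading frame that are made, spliced and tailed much like messenger RNA. Some build nuclear bodies or coat chromatin, some act on the gene beside them in the same DNA, and others serve mainly as precursors of microRNAs or small nucleolar RNAs. Transcribed pseudogenes are copies of coding genes that have lost the reading frame but are still copied into RNA. In macrophages and microglia several such RNAs are known to change when the cells meet inflammatory signals.

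The set described here comprised 365 noncoding transcripts of 361 genes that were measured in primary mouse microglia. It was taken from the 1078 transcripts on the array with a RefSeq noncoding identifier, of which 409 gave a signal well above background on at least 8 of 12 arrays. Of these, 10 belonged to protein-coding genes and 34 had no match in the gene table, and both were left out. Where a transcript had several probes, the brightest was kept. The members were 264 long noncoding RNAs, 91 transcribed pseudogenes, 4 small nuclear RNAs, 2 ribosomal RNAs, 2 small nucleolar RNAs, the RNA of RNase MRP and the telomerase RNA. On all 12 arrays 290 members were well above background, and the other 75 were on 8 to 11 arrays.

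Microglia were shaken off mixed glial cultures from brains of C57BL/6 mice aged 1 to 3 days. They were then given culture supernatant of Th1 cells, culture supernatant of Th17 cells, or T cell medium (IMDM) as control. In the methods, the control medium of all experiments was mixed with as much complete DMEM, as was Th1 supernatant for astrocytes. The group given control medium is labelled untreated, and the labels give no transgene or mutation for any group. The methods give 16 h of treatment for astrocyte cultures, and a time for the microglia on these arrays is not given in the sources used here. Each group held 4 arrays, 1 from each of the experiments numbered 12, 13, 14 and 16. Every Agilent array carried the Cy3-marked RNA of 1 sample, and values below are log2 of the normalised signal.

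The arrays had 54.5 to 60.7% of probes well above background after Th1 supernatant, 55.8 to 61.2% after Th17 supernatant and 58.8 to 65.0% in untreated microglia. All 8 microglia markers checked were measured, and their mean log2 signal lay between 13.61 and 14.29 on Th1 arrays, 14.31 and 15 on Th17 arrays and 14.27 and 14.95 on untreated arrays. The 7 astrocyte markers measured, of 10 listed, averaged highest in experiment 14 in every group, with 8.15 on the Th1 array, 8.31 on the Th17 array and 8.69 on the untreated array, against at most 7.87 on any other array. The 5 oligodendrocyte lineage markers measured, of 7 listed, averaged 6.98 to 8.14 on Th1 arrays, 8.20 to 9.36 on Th17 arrays and 8.14 to 9.85 on untreated arrays. Of the microglia markers Cx3cr1 gave a log2 fold change of -6.31 and Aif1 of 1.18 with Th1 supernatant against untreated. The 4 T cell markers measured, of 5 listed, averaged 9.47 to 10.01 on Th1 arrays, 9.82 to 10.62 on Th17 arrays and 10.51 to 10.69 on untreated arrays, with -5.28 for Cd28, 2.35 for Lck, -0.31 for Cd3e and -0.15 for Cd4. The 4 neuron markers averaged 7.10 to 7.74, 7.45 to 7.93 and 7.51 to 8.11 on Th1, Th17 and untreated arrays, and the 4 fibroblast and mural markers measured, of 8 listed, 7.84 to 8.50, 7.34 to 8.38 and 7.42 to 8.85. The part of other cells in the results was not tested, and counts without the 3 arrays of experiment 14 stand beside the main ones. Fewer cells of a type and less RNA per cell cannot be told apart in these bulk samples.

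Promoter sequences are shown for 3 of the members that rose, because they hold the letters of a binding motif for transcription factors of the interferon pathway. Each window runs from 250 bases before to 50 bases after the RefSeq start site of the gene, on the strand of the gene in build GRCm38.p6. Capitals mark every match to the gamma-activated site TTCNNNGAA or to the core of the interferon-stimulated response element (a pair of GAAA separated by any 2 bases) on either strand. The windows are chr15:79893089-79893388 on the minus strand for D730005E14Rik, chr11:53859207-53859506 on the minus strand for Gm12216 and chr2:147362744-147363043 on the minus strand for AI646519.
D730005E14Rik: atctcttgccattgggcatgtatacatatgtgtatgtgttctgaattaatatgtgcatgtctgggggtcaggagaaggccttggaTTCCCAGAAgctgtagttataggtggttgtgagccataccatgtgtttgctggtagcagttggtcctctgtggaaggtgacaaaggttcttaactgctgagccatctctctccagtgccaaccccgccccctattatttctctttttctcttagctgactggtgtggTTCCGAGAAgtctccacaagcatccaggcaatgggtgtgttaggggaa
Gm12216: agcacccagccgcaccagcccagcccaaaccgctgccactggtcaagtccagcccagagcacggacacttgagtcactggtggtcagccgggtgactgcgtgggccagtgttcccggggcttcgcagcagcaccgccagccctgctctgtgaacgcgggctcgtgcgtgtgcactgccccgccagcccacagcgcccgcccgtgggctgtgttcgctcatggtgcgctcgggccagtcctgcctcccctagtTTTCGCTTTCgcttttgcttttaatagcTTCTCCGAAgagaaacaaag
AI646519: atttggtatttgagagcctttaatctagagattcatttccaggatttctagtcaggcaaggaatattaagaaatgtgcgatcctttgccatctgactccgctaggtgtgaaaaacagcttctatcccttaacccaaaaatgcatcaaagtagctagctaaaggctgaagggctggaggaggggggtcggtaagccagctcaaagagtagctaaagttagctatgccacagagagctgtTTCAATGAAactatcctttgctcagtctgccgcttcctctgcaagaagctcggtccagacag
The table held a promoter for 21 of the 29 genes that rose, and TTCNNNGAA was found in 6 of these (28.6%), the response element core in 2 (9.52%) and either motif in 7 (33.3%). Among the 26 genes that fell, 13 had a promoter in the table, of which 0 held TTCNNNGAA and 1 (7.69%) held the response element core. Over all 207 member genes with a promoter the shares were 9.18% and 2.42%, and over all 27025 genes of the table they were 9.55% and 3.99%. For either motif the shares were 10.6% of these member genes and 12.9% of all genes of the table. The windows of AW011738, G530011O06Rik, 4933412E12Rik, Gdap10 and Morrbid, also among the largest rises, held neither motif. A gene with several start sites was counted as holding a motif if any of its windows did. The 2 motifs overlap in none of their letters in the Gm12216 window. These are matches of letters only, and the shares rest on few genes.

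Th1 supernatant changed a share of the noncoding transcripts close to the share of all transcripts. At an adjusted p under 0.01 and over 2-fold, 29 of 365 members (7.95%) rose and 26 (7.12%) fell in Th1-treated against untreated microglia. Of all 20319 features tested, 7.61% rose and 7.89% fell in the same comparison. For protein-coding features seen on at least 8 arrays, 7.91% rose and 9.52% fell. The log2 fold changes of the members ran from -2.98 to 3.51, with a median of -0.01 and a median size of 0.45, against 0.41 over all features. Without the 3 arrays of experiment 14, 24 members rose and 19 fell, and with normexp correction of median spot signals with an offset of 50 in place of the processed signals 14 rose and 13 fell. Over all features the main counts were 1546 and 1604. They were 1417 and 1497 without experiment 14, and 1121 and 1009 with normexp. Errors of fold changes below are standard errors of the limma fit with 4 arrays in each group.

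All 55 members called moved in the same direction in each of the 4 experiments, which selection by the call thresholds largely fixes. Over all members, Th1 and untreated values did not overlap for 126 (34.5%), against 40.3% of all features. Among those called, which the thresholds largely fix, they did not overlap for 28 of the 29 that rose and for 24 of the 26 that fell, against 98.6% and 97.9% of all features called. The requirement of 8 arrays could not admit a transcript that was seen only on the 4 Th1 arrays, whereas 4 members whose probe was not well above background on any Th1 array were kept. Where 4 arrays sufficed, 33 transcripts rose and 31 fell, and the number of transcripts in that larger set is not given here.

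**Figure D1:**
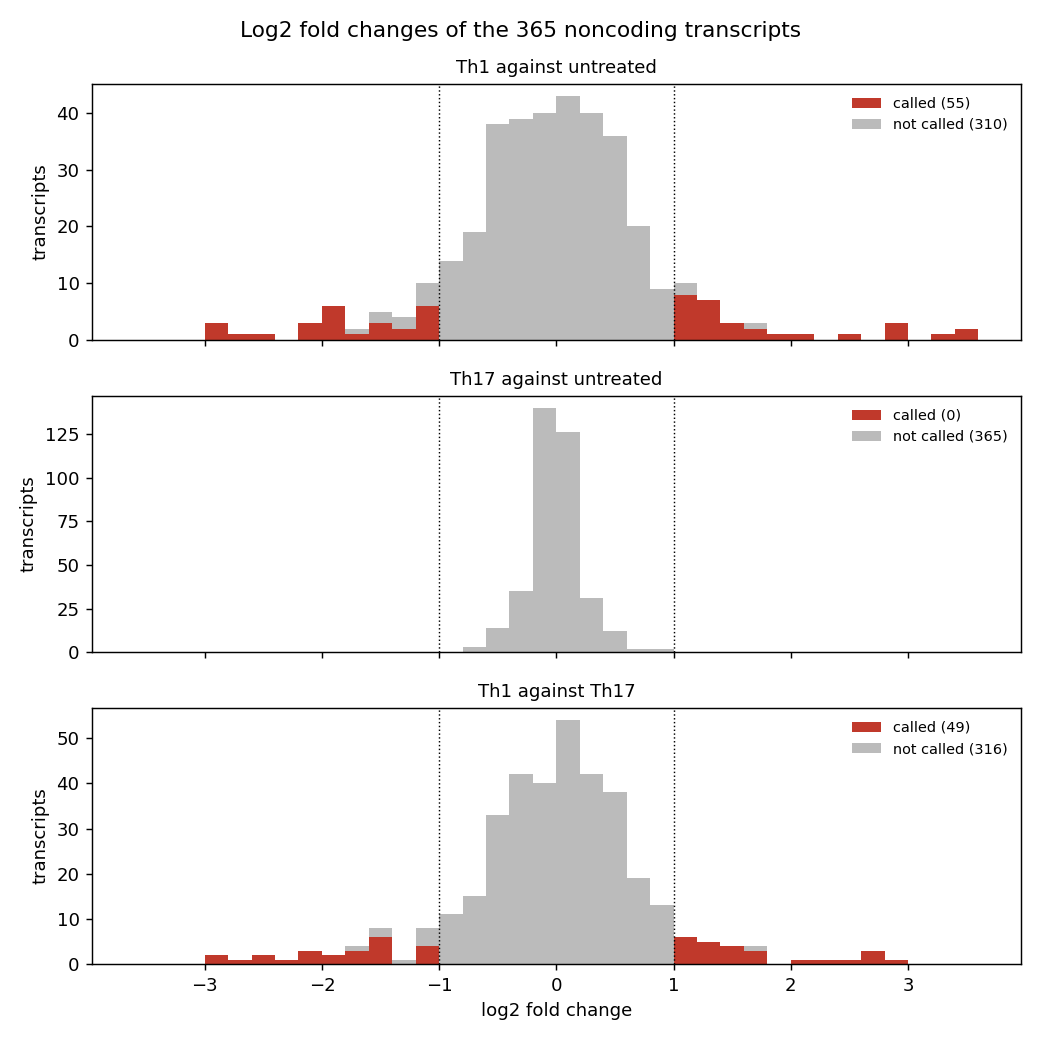
Number of noncoding transcripts (vertical axis) by log2 fold change (horizontal axis, bins of 0.2) in the 3 comparisons, with called transcripts in red and dotted lines at 2-fold. With Th1 supernatant the 365 transcripts spread from -2.98 to 3.51 against untreated, and with Th17 supernatant from -0.67 to 0.92.

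The largest rise was that of AW011738, a long noncoding RNA on chromosome 4 of no known function. Its log2 signal was 8.12, 7.75, 8.05 and 7.36 on the Th1 arrays of experiments 12, 13, 14 and 16, 4.24, 5.62, 5.05 and 4.42 on the Th17 arrays, and 4.56, 4.55, 3.91 and 4.21 on the untreated arrays. All 4 Th1 values lay above all others, and on the untreated arrays the transcript was well above background on only 2. The log2 fold change against untreated was 3.51 ± 0.29 (SE, adjusted p = 3.39e-06). In the gene table it overlaps Perm1, and Isg15, a ubiquitin-like protein and a classic interferon target, lies within 5 kb. Isg15 mRNA rose by 5.14 ± 0.76 on the log2 scale (adjusted p = 0.000242).

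D730005E14Rik on chromosome 15 lies antisense to Apobec3, which encodes a cytidine deaminase that restricts retroviruses. On Th1 arrays it reached 8.40, 8.74, 8.78 and 8.12, on Th17 arrays 5.60, 6.64, 5.78 and 5.06, and on untreated arrays 5.52, 5.13, 4.29 and 5.34. Its log2 fold change of 3.44 ± 0.34 (adjusted p = 1.1e-05) stood beside 0.74 ± 0.14 for Apobec3, which passed the p threshold (adjusted p = 0.00103) but not 2-fold. The Th1 values were again separate from the others.

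G530011O06Rik, antisense to the ubiquitin ligase gene Mid1 on the X chromosome, had 9.78, 8.0, 10.32 and 8.83 on Th1 arrays, 6.32, 5.94, 7.16 and 6.53 on Th17 arrays and 6.10, 5.06, 5.89 and 6.57 in untreated cells. It rose by 3.32 ± 0.48 (adjusted p = 0.000195), and its Th1 values spread more widely than those of the other leading members. A start site of G530011O06Rik is also given on the Y chromosome, and which copy the probe reads was not tested. Gm4759, a transcribed pseudogene on chromosome 7, had 8.01, 7.13, 7.01 and 7.67 on Th1 arrays, 4.68, 5.90, 5.33 and 4.20 on Th17 arrays and 4.36, 4.62, 4.78 and 4.17 on untreated arrays, a rise of 2.97 ± 0.34 (adjusted p = 3.6e-05). The lowest Th1 value of either transcript exceeded the highest value of the other groups.

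Head to head with Rab3ip, whose product activates the small GTPase Rab8, 4933412E12Rik had 11.41, 11.24, 11.63 and 11.15 on Th1 arrays, 8.17, 8.98, 8.88 and 8.47 on Th17 arrays and 8.46, 8.17, 8.98 and 8.18 on untreated arrays. The rise of 2.91 ± 0.22 (adjusted p = 1.76e-06) compared with 0.92 ± 0.16 for Rab3ip (adjusted p = 0.00072, under 2-fold). Gdap10 lies inside Nampt on the same strand, and Nampt makes the rate-limiting enzyme of NAD salvage. Its signal was 11.68, 11.72, 12.33 and 13.15 on Th1 arrays, 9.90, 9.51, 10.44 and 9.67 on Th17 arrays and 8.74, 9.08, 10.05 and 9.45 on untreated arrays. Gdap10 rose by 2.89 ± 0.36 (adjusted p = 6.85e-05) and Nampt by 2.95 ± 0.19 (adjusted p = 3.95e-07), and a probe for RNA of an overlapping gene on the same strand can also take up unspliced RNA of that gene.

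Gm12216 has no coding gene within 5 kb, but Irf1, a transcription factor of the interferon response, lies within 100 kb. The noncoding transcript had 7.65, 7.77, 7.90 and 8.09 on Th1 arrays, 5.51, 6.33, 5.78 and 5.41 on Th17 arrays and 5.31, 5.20, 5.97 and 5.27 on untreated arrays. It rose by 2.42 ± 0.22 (adjusted p = 6.46e-06) and Irf1 by 4.34 ± 0.25 (adjusted p = 1.76e-07), while the other 3 measured coding genes in that window, Rad50, Slc22a21 and Slc22a5, were not called. Its promoter is the one above that holds both motifs.

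Morrbid is known in the mouse to prolong the life of short-lived myeloid cells by holding down the pro-apoptotic gene Bcl2l11. It had 6.94, 6.99, 7.44 and 6.80 on Th1 arrays, 5.0, 5.12, 5.14 and 6.41 on Th17 arrays and 5.13, 4.53, 4.62 and 5.46 on untreated arrays. The rise was 2.11 ± 0.31 (adjusted p = 0.000237), with no Th1 value inside the range of the other groups, and the Th17 array of experiment 16 came closest. Bcl2l11 itself gave a log2 fold change of -1.13 ± 0.35 and was not called (adjusted p = 0.0217). Against Th17, Morrbid was 1.63 ± 0.31 higher (adjusted p = 0.00149), and without experiment 14 this comparison gave 1.40 with an adjusted p of 0.0199. With normexp the log2 fold changes of Morrbid were 0.65 against untreated and 0.54 against Th17, both under 2-fold.

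Less than 4-fold rises were seen for 21 further members. AI646519, antisense to Pax1, had the smallest spread within groups of those named so far, with 13.71, 13.80, 13.84 and 13.72 on Th1 arrays, 11.83, 12.20, 12.21 and 11.99 on Th17 arrays and 12.00, 11.99, 11.83 and 12.06 on untreated arrays (log2 fold change 1.80 ± 0.11, adjusted p = 2.29e-07). BC051226 is head to head with Daxx, a histone chaperone of nuclear bodies. It had 10.32, 9.39, 9.51 and 9.50 on Th1 arrays, 8.07, 7.90, 8.0 and 7.86 on Th17 arrays and 8.21, 7.86, 8.27 and 7.88 on untreated arrays. BC051226 rose by 1.62 ± 0.19 (adjusted p = 4.27e-05) and Daxx by 2.16 ± 0.19 (adjusted p = 5.11e-06).

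Lppos, antisense to the adhesion gene Lpp, had 8.89, 9.03, 8.86 and 8.57 on Th1 arrays, 7.76, 8.04, 7.5 and 7.44 on Th17 arrays and 7.57, 7.67, 6.78 and 7.16 on untreated arrays. It rose by 1.54 ± 0.20 (adjusted p = 0.000101), and Lpp rose by 1.80 ± 0.19 (adjusted p = 2.08e-05). Further rises on the log2 scale were 1.60 for Gm45351, 1.53 for 5430405H02Rik, 1.46 for the histone pseudogene Macroh2a3 and 1.10 for Dubr, a long noncoding RNA known in mouse muscle cells for its part in differentiation. Gm11110, which overlaps the costimulatory ligand gene Tnfsf9, passed the thresholds (1.37 ± 0.33, adjusted p = 0.00528), yet its untreated value of 9.32 in experiment 16 overlapped the lowest Th1 value of 9.29. Leaving out single arrays ended that call, as did a fit with no filter on dim features (adjusted p = 0.0172). The log2 fold change was 1.26, 1.22 and 1.31 without the untreated array of experiment 12, 13 or 14, 1.31, 1.31 and 1.34 without the Th1 array of experiment 12, 14 or 16, and 1.25 without the 3 arrays of experiment 14.

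**Figure D2:**
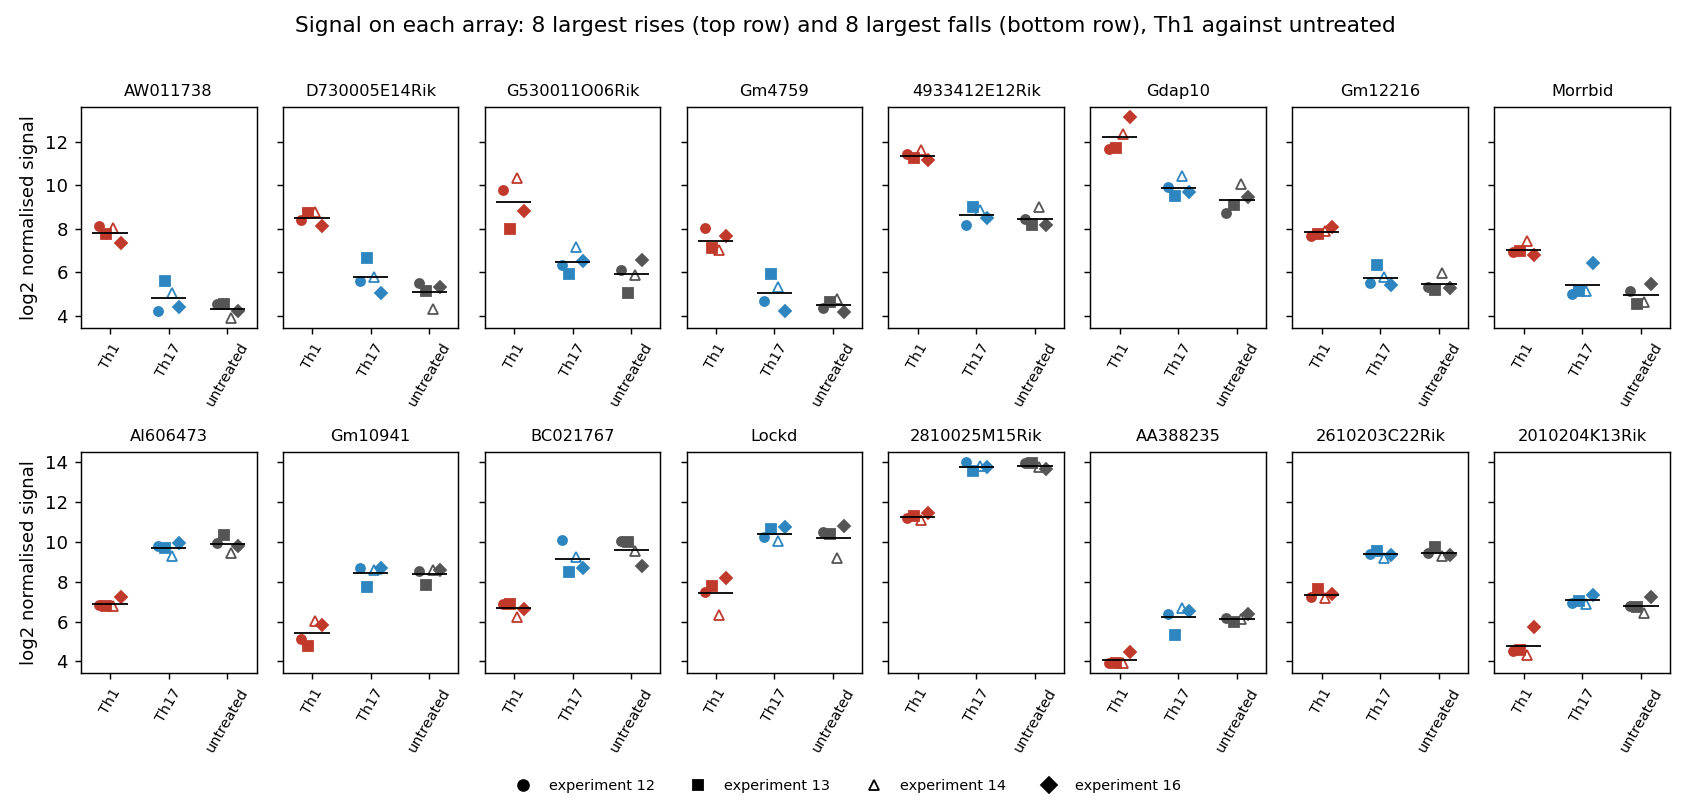
Log2 normalised signal on each array for the 8 members with the largest rises (top row) and the 8 with the largest falls (bottom row) with Th1 supernatant, in columns for Th1, Th17 and untreated, with a symbol for each experiment and a bar at the mean of 4 arrays. In all 16 members the 4 Th1 values lie outside the range of the untreated values, while Th17 and untreated values share a range.

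Among the members that fell, AI606473 on chromosome 3, head to head with the homeobox gene Lhx8, had the lowest fold change. It had 6.86, 6.78, 6.77 and 7.22 on Th1 arrays, 9.81, 9.72, 9.30 and 9.96 on Th17 arrays and 9.97, 10.34, 9.46 and 9.79 on untreated arrays, a log2 fold change of -2.98 ± 0.20 (adjusted p = 6.01e-07). Gm10941, antisense to the fucosyltransferase gene Pofut2, had 5.13, 4.78, 6.05 and 5.85 on Th1 arrays, 8.67, 7.76, 8.60 and 8.69 on Th17 arrays and 8.56, 7.86, 8.57 and 8.57 on untreated arrays. It fell by 2.94 ± 0.31 (adjusted p = 1.79e-05), against -0.23 ± 0.16 for Pofut2 (adjusted p = 0.253). In both transcripts the groups were far apart, although Gm10941 was well above background on only 3 of the 4 Th1 arrays.

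BC021767, a transcribed pseudogene beside Tuft1, had 6.90, 6.91, 6.25 and 6.66 on Th1 arrays, 10.12, 8.49, 9.26 and 8.68 on Th17 arrays and 10.07, 10.01, 9.53 and 8.81 on untreated arrays. The fall was 2.93 ± 0.36 (adjusted p = 6.63e-05), while Tuft1 gave -0.01 ± 0.13 (adjusted p = 0.969). Lockd is named after its place downstream of Cdkn1b, the gene of the cell cycle inhibitor p27. Its signal was 7.51, 7.78, 6.32 and 8.20 on Th1 arrays, 10.24, 10.66, 10.03 and 10.73 on Th17 arrays and 10.48, 10.39, 9.21 and 10.79 on untreated arrays. Lockd fell by 2.76 ± 0.41 (adjusted p = 0.000239) and Cdkn1b gave -0.32 ± 0.18 (adjusted p = 0.159). Lockd was among the 35 of 365 members that were lowest in experiment 14 in every group.

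2810025M15Rik, which overlaps the RAS regulator gene Rasal2, had the smallest p of all members. Its signal was 11.21, 11.29, 11.10 and 11.45 on Th1 arrays, 14.01, 13.55, 13.81 and 13.76 on Th17 arrays and 13.97, 13.97, 13.75 and 13.66 on untreated arrays (log2 fold change -2.57 ± 0.13, adjusted p = 5.91e-08). Rasal2 gave -0.97 ± 0.16 (adjusted p = 0.000416), just short of 2-fold. 2610203C22Rik, with 7.25, 7.62, 7.21 and 7.37 on Th1 arrays, 9.42, 9.53, 9.21 and 9.37 on Th17 arrays and 9.46, 9.73, 9.31 and 9.35 on untreated arrays, fell by 2.10 ± 0.13 (adjusted p = 3.14e-07). It overlaps 2 coding genes, of which Adhfe1, a mitochondrial dehydrogenase, rose by 4.18 ± 0.49 (adjusted p = 4.13e-05) and Vxn gave -0.81 ± 0.50 (adjusted p = 0.209).

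Some falls ended below detection. AA388235 was at the floor of 3.91 on 3 Th1 arrays and at 4.48 on the fourth, against 6.38, 5.32, 6.67 and 6.56 on Th17 arrays and 6.16, 5.96, 6.12 and 6.38 on untreated arrays. Being not well above background on any Th1 array, it can only be bounded, at least 3.12-fold lower than untreated (adjusted p = 7.11e-05). Crnde, a long noncoding RNA first described in colorectal tumours, had 3.91, 3.91, 5.03 and 3.91 on Th1 arrays, 6.18, 6.43, 5.59 and 5.95 on Th17 arrays and 6.25, 6.0, 6.03 and 5.82 on untreated arrays. For Crnde the bound was at least 2.85-fold lower (adjusted p = 0.000164), and for the pseudogene B630019K06Rik at least 2.05-fold lower (adjusted p = 0.00221). AI504432, beside the potassium channel gene Kcna3, was not well above background on any Th1 array by the probe kept and gave -1.40 on the log2 scale (adjusted p = 0.000742), but its other probe, well above background on 9 arrays, gave -0.94, so no bound is given. These bounds set the mean of the untreated arrays against the lowest signal that still counted as well above background on the Th1 arrays, or the signal of the transcript itself where that was higher. With a floor of 50 in place of 15, AA388235 and Crnde were among the members no longer called. At that floor 25 members rose and 18 fell against untreated, and 43 of the 55 main calls were kept. Over all features 1390 rose and 1300 fell at that floor, in place of 1546 and 1604. For Th1 against Th17, 38 of 49 calls were kept.

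Peg13 is expressed from the paternal allele, within an intron of Trappc9. It had 9.37, 9.75, 9.86 and 10.01 on Th1 arrays, 11.38, 11.13, 11.66 and 11.45 on Th17 arrays and 11.34, 11.69, 12.10 and 11.33 on untreated arrays. The fall of 1.87 ± 0.20 (adjusted p = 1.87e-05) stood beside -0.02 ± 0.09 for Trappc9 (adjusted p = 0.841). Pvt1, the transcript that neighbours Myc and is often amplified with it in tumours, had 7.34, 8.02, 7.05 and 8.13 on Th1 arrays, 9.19, 9.71, 8.99 and 9.64 on Th17 arrays and 9.48, 9.53, 9.10 and 9.75 on untreated arrays. It fell by 1.83 ± 0.26 (adjusted p = 0.000167), whereas its other probe gave -0.86. Myc, within 100 kb, fell by 2.05 ± 0.45 (adjusted p = 0.00328).

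The remaining named falls on the log2 scale were 2.01 for 2010204K13Rik, 1.99 for 3300005D01Rik, 1.85 for Gm15706 and 1.84 for Gm9920. Gm9920 overlaps Deptor, which encodes an inhibitor of the kinase mTOR and fell as well, by 1.65 ± 0.19 (adjusted p = 3.54e-05). Gm15706 had 7.15, 7.08, 6.73 and 7.69 on Th1 arrays, 9.12, 8.88, 8.80 and 8.93 on Th17 arrays and 9.21, 9.06, 8.77 and 9.02 on untreated arrays, with no overlap between the Th1 values and the others. Map2k3os was the head-to-head partner of the stress kinase gene Map2k3 and fell by 1.05 (adjusted p = 0.00201), with -0.75 for Map2k3.

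The coding gene next to a called member was itself called in a minority of pairs. Of the 29 members that rose, 14 had a measured coding gene overlapping or within 5 kb. The nearest of these rose in 4 pairs (AW011738 with Isg15, Gdap10 with Nampt, BC051226 with Daxx and Lppos with Lpp), fell in 0 and was not called in 10, with a median of 0.38. Of the 26 that fell, 13 had such a gene, which fell in 1 pair (Gm9920 with Deptor), rose in 1 (2610203C22Rik with Adhfe1) and was not called in 11, with a median of -0.32. Next to the members that were not called, 12 of 161 coding genes rose and 11 fell, with a median of 0.01. Within 100 kb, the nearest measured coding gene of 23 members that rose itself rose for 4 and fell for 1. For 22 members that fell, it rose for 2 and fell for 3, and for 261 members not called it rose for 25 and fell for 23. Irf1 and Myc moved with their members. Within 100 kb of AA388235, which fell, Tapbp rose by 2.39 ± 0.25 (adjusted p = 1.81e-05), and Daxx and H2-K1 rose too. Kifc1, in the same window, gave -1.93 ± 0.50 (adjusted p = 0.00884). Other called genes in such windows went either way. Col18a1 (-3.87) and Adarb1 (-2.44) fell with Gm10941, and Cgn (-2.96) with BC021767. Prmt7 (-1.92) and Nlrp3 (1.33) moved against 1810019D21Rik and 4933439C10Rik. These are examples and not a count. Strand is not given in the table for all pairs, and the probes of a pair were read only as differences.

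**Figure D3:**
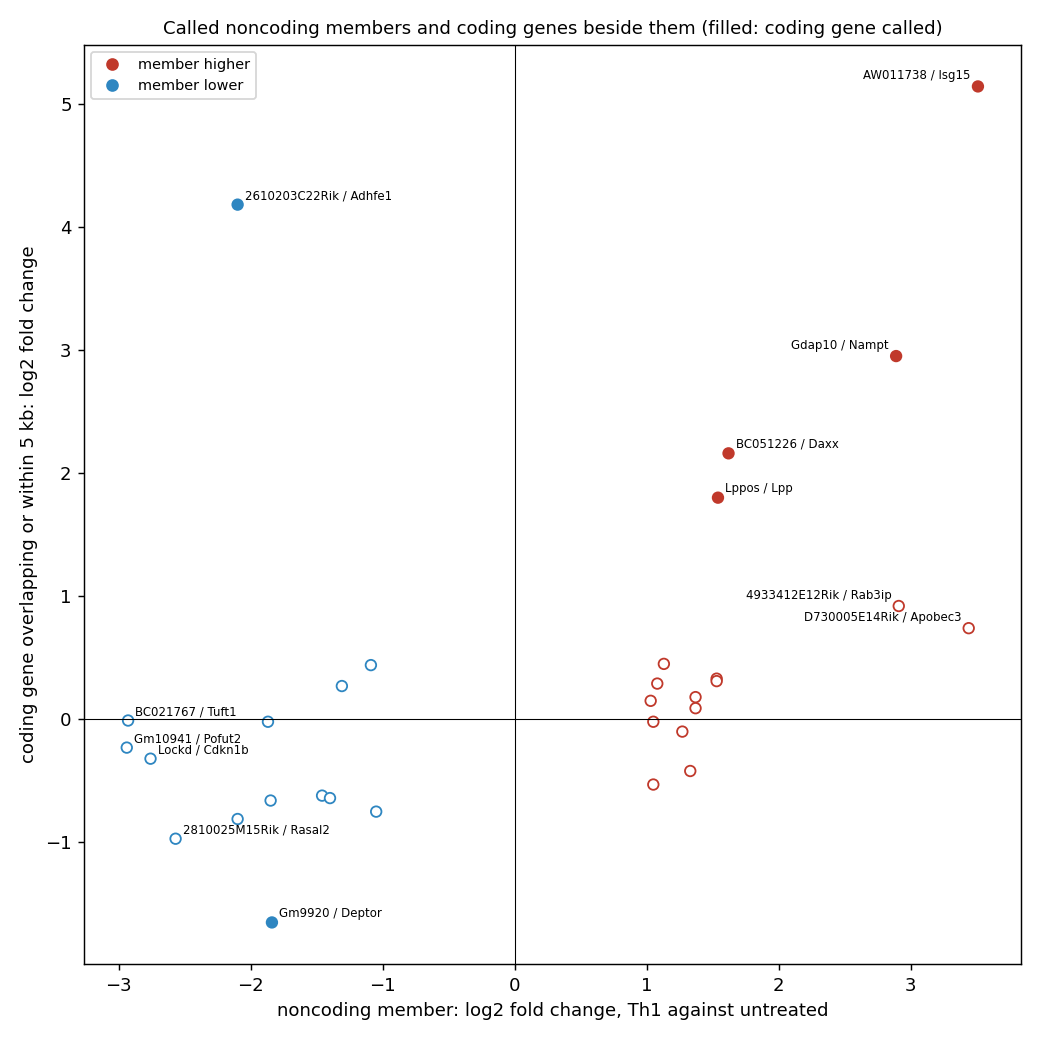
Log2 fold change with Th1 supernatant against untreated of each measured coding gene overlapping or within 5 kb (vertical axis) by that of the called noncoding member beside it (horizontal axis). Red points belong to members that rose and blue points to members that fell, and filled points are coding genes called by the same rule, such as Isg15 at 5.14 and Deptor at -1.65.

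Called members were found in every larger class by type and position. Of 264 long noncoding RNAs, 22 (8.33%) rose and 19 (7.20%) fell, and of 91 transcribed pseudogenes 7 (7.69%) rose and 7 (7.69%) fell. Of 65 members antisense to a coding gene, 7 (10.8%) rose and 2 (3.08%) fell, of 31 in head-to-head position 3 (9.68%) rose and 2 (6.45%) fell, and of 137 with no coding gene within 5 kb 13 (9.49%) rose and 11 (8.03%) fell. Of the other 55 with a coding gene within 5 kb 1 (1.82%) rose and 6 (10.9%) fell, of 71 that overlap a coding gene and lack a strand 3 (4.23%) rose and 5 (7.04%) fell, and of 6 with a sense overlap 2 rose and 0 fell. These shares stand beside 7.61% and 7.89% of all features, and differences between classes were not tested. Whether the probe of a pseudogene separates the copy from its functional relative was not tested. H2-K2, a pseudogene close in sequence to the class I antigen gene H2-K1, had 17.45, 17.46, 17.51 and 17.20 on Th1 arrays, 16.11, 16.59, 16.25 and 16.02 on Th17 arrays and 16.41, 15.85, 16.13 and 15.82 on untreated arrays. It rose by 1.35 ± 0.16 (adjusted p = 4.75e-05) and H2-K1 rose by 1.42 ± 0.20 (adjusted p = 0.000164), and the H2-K2 value is to be taken as uncertain. Hmgb1-rs17 fell by 1.18 and Hmgb1, a chromatin protein, by 1.14 ± 0.14 (adjusted p = 7.43e-05). Gpr137b-ps fell by 1.09 and Gpr137b by 1.22 ± 0.28 (adjusted p = 0.00414). Tyms-ps moved apart from its relative, with a fall of 1.67 ± 0.24 (adjusted p = 0.00021) against 0.86 ± 0.31 for Tyms, the thymidylate synthase gene, which was not called (adjusted p = 0.0411).

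Of 30 measured transcripts from 8 lists of widely studied noncoding RNAs, 3 (10%) were called with Th1 supernatant against untreated, compared with 15.5% of all features. The small nucleolar RNA host genes carry small nucleolar RNAs in their introns and follow ribosome production in many cells. Of 19 listed, 9 were on the array with a noncoding identifier and 8 were measured, and 0 rose or fell, with a median of -0.34. By p Snhg12 came closest, with 10.32, 10.51, 10.48 and 10.65 on Th1 arrays, 11.22, 11.29, 10.83 and 10.85 on Th17 arrays and 11.29, 11.08, 10.85 and 11.11 on untreated arrays (log2 fold change -0.59 ± 0.14, adjusted p = 0.00481, under 2-fold). Snhg7 had -0.88 ± 0.33 (adjusted p = 0.0494), and without the Th1 array of experiment 16 it was -1.20 and called (adjusted p = 0.00397).

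Malat1, which sits in nuclear speckles, Neat1, the scaffold of paraspeckles, and Norad, which binds Pumilio proteins, were all measured and none was called. Neat1 had 12.27, 11.97, 13.26 and 14.73 on Th1 arrays, 14.93, 13.13, 14.72 and 15.46 on Th17 arrays and 14.25, 14.22, 13.97 and 15.58 on untreated arrays. The ranges overlapped, and the log2 fold change was -1.45 ± 0.64 (adjusted p = 0.0876). Within each experiment the Th1 value was lower than the untreated value, and with experiment as a block the difference was called (adjusted p = 0.00811). Malat1 had 9.55, 9.68, 11.08 and 10.46 on Th1 arrays, 11.51, 10.51, 11.87 and 10.90 on Th17 arrays and 10.58, 10.62, 11.65 and 11.05 on untreated arrays, a log2 fold change of -0.79 ± 0.39 (adjusted p = 0.124). In each group Malat1 was highest in experiment 14. Norad gave 0.21 ± 0.11 (adjusted p = 0.145).

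From the X inactivation centre, 2 Xist transcripts and Ftx were measured, and 0 were called. Xist coats the inactive X chromosome, and its transcripts gave -0.62 ± 0.41 and -0.20 ± 0.40 (adjusted p = 0.241 and 0.704). By the probe kept, Ftx had 5.80, 5.86, 8.38 and 5.88 on Th1 arrays, 5.88, 5.92, 7.95 and 6.07 on Th17 arrays and 5.90, 5.26, 5.52 and 5.86 on untreated arrays, so that only the supernatant-treated arrays of experiment 14 stood above the rest. Against untreated this probe gave 0.85 with Th1 and 0.82 with Th17. Its other probe, well above background on only 4 arrays, gave -0.07 and 0.38. Of 3 measured imprinted transcripts Peg13 was called, while Airn, which silences Igf2r on the paternal allele, had -0.50 ± 0.15 (adjusted p = 0.0177) by the brighter probe and 0.83 by its other probe, so that its direction is not settled, and Kcnq1ot1 had -0.64 ± 0.33 (adjusted p = 0.144). The array read Kcnq1ot1 close to its floor in the Th1 group.

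The microRNA list took every member whose symbol begins with Mir, and added Dleu2, Pvt1 and Dnm3os. It held 7 genes, of which 6 were measured, a share largely fixed by that rule, and Pvt1 fell. Mirt1 entered by its symbol alone. In the RefSeq table mature microRNAs lie in or within 1 kb of Mir17hg, Dleu2 and Mir22hg on the same strand, and likewise of D7Ertd143e (log2 fold change -0.11), Ftx (0.85) and Snhg10 (-0.27), and none of these 6 was called against untreated. Mir17hg, the host of the microRNA cluster that starts with miR-17 and promotes cell growth, had 6.82, 5.83, 6.81 and 7.11 on Th1 arrays, 7.74, 7.55, 7.86 and 8.05 on Th17 arrays and 7.23, 7.12, 7.96 and 8.24 on untreated arrays. It was lower than with Th17 by 1.15 ± 0.30 and called there (adjusted p = 0.00939), but against untreated the fold change of -0.99 ± 0.30 missed both thresholds (adjusted p = 0.02). Mature microRNAs were not measured. The table gives 11 for the cluster, and 1 arm of each of its 6 hairpins is shown because they are what this transcript gives rise to, from 5′ to 3′ with the seed, bases 2 to 8, in capitals (RefSeq, GRCm38.p6, chromosome 14).
miR-17-5p: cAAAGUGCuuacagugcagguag
miR-20a-5p: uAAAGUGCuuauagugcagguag
miR-18a-5p: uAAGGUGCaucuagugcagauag
miR-19a-3p: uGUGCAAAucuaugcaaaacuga
miR-19b-3p: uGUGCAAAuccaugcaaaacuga
miR-92a-3p: uAUUGCACuugucccggccug
By seed, miR-17-5p and miR-20a-5p form 1 group, miR-19a-3p and miR-19b-3p another, and miR-18a-5p and miR-92a-3p each have their own. In the table only miR-92a lies inside the Mir17hg gene model, and the others lie within 1 kb of it on the same strand. Mir99ahg had 6.18, 6.14, 6.74 and 6.55 on Th1 arrays, 7.04, 7.15, 7.51 and 7.09 on Th17 arrays and 7.01, 7.10, 7.84 and 7.07 on untreated arrays, so the Th1 and untreated values did not overlap. Its log2 fold change of -0.85 ± 0.21 (adjusted p = 0.00593) was under 2-fold. Dleu2, host of miR-15a and miR-16-1, gave 0.42 ± 0.24 (adjusted p = 0.175), Mir22hg -0.33 ± 0.23 (adjusted p = 0.27) and Mirt1 -0.10 ± 0.28 (adjusted p = 0.787).

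Of the immune list 3 of 10 genes were measured, and Morrbid alone rose, while Nron, a repressor of the transcription factor NFAT, gave 0.20 ± 0.11 (adjusted p = 0.143). Among growth-related RNAs Pvt1 fell, the 2 Tug1 transcripts gave 0.40 ± 0.28 and 0.25 ± 0.10 (adjusted p = 0.265 and 0.0557), and Dancr gave -0.18 ± 0.32 (adjusted p = 0.673). The RNA of RNase MRP (Rmrp) and the telomerase RNA (Terc) gave -0.11 ± 0.20 and -0.06 ± 0.24 (adjusted p = 0.674 and 0.868). The kit used for labelling primes from poly(A) tails, which the structural RNAs mostly lack, and their values are to be read with that in mind.

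**Figure D4:**
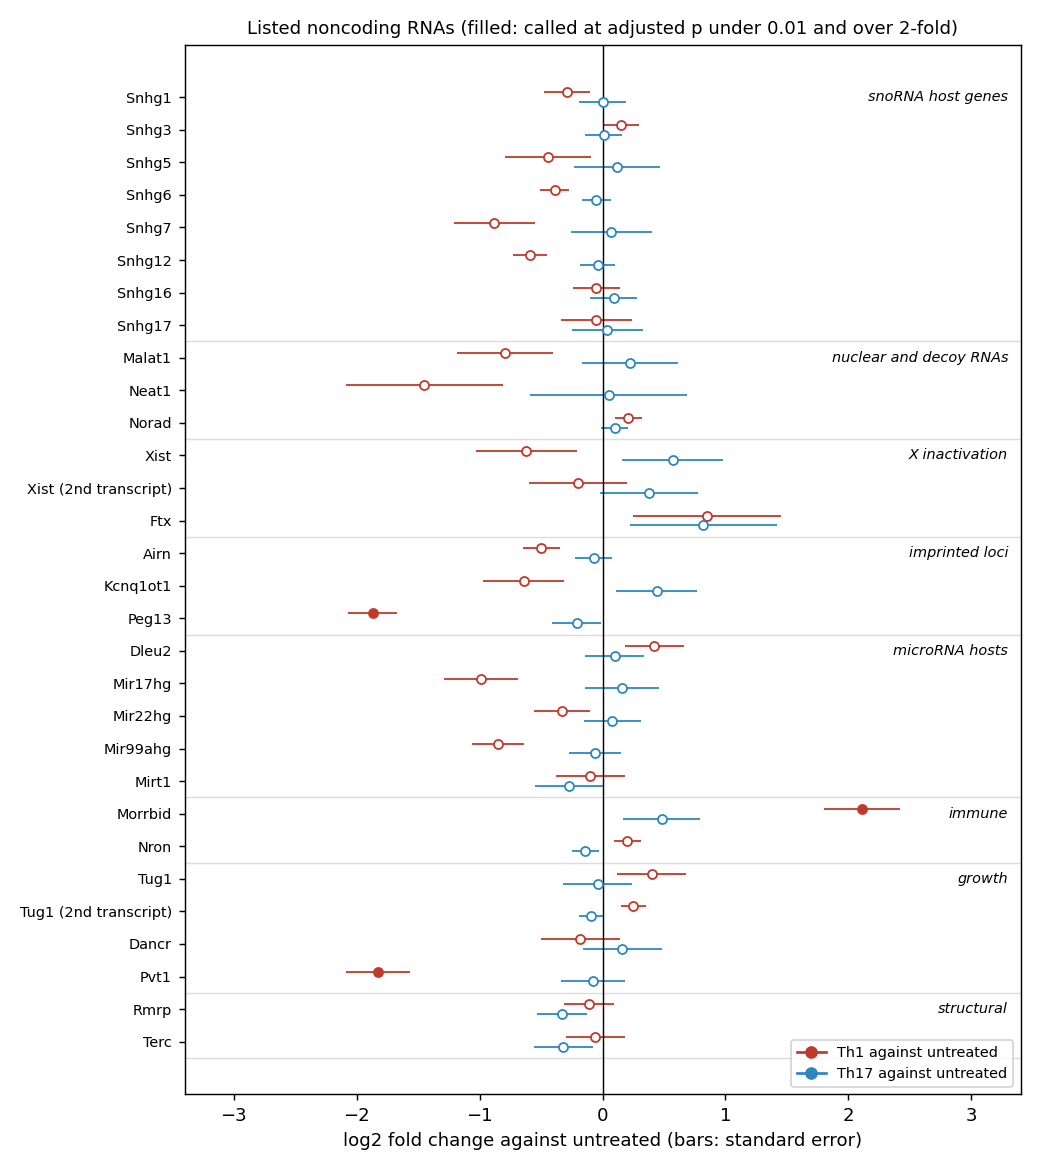
Log2 fold change (horizontal axis, bars are standard errors) of the listed noncoding RNAs against untreated with Th1 supernatant (red) and Th17 supernatant (blue), filled where called. Peg13 at -1.87, Morrbid at 2.11 and Pvt1 at -1.83 are the 3 filled points, all with Th1 supernatant.

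Th17 supernatant left no noncoding transcript past the thresholds. In the limma fit 0 of 365 members rose and 0 fell against untreated microglia, and 0% of all 20319 features were called in either direction. At an unadjusted p under 0.05 there were 5 members (1.37%), compared with 333 features (1.64%) overall. All 365 members stayed within 2-fold, from -0.67 to 0.92, with a median size of 0.11. None was called under any other setting tried. The Th17 and untreated values did not overlap for 1 member (0.274%), against 0.871% of all features.

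The 5 members with the smallest p against untreated were Gm4956, Gm13807, 1500015A07Rik, 1810053B23Rik and 4933413J09Rik. Gm4956 had 5.66, 5.59, 5.83 and 5.73 on Th17 arrays and 6.30, 5.83, 6.08 and 6.14 on untreated arrays, a log2 fold change of -0.38 ± 0.14 with an adjusted p of 1. Gm13807, beside the tetraspanin gene Cd82, had 5.46, 5.26, 5.44 and 5.64 on Th17 arrays and 4.82, 5.40, 4.66 and 4.96 on untreated arrays, a log2 fold change of 0.49 ± 0.19 with an adjusted p of 1. The other 3 gave 0.35, -0.24 and -0.43 in the order named. Members that rose with Th1 supernatant had Th17 log2 fold changes against untreated between -0.15 and 0.70, and members that fell had values between -0.47 and 0.28. Both comparisons share the untreated arrays.

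Set directly against each other, the supernatants differed in 49 members. With Th1 against Th17 supernatant, 25 of 365 members (6.85%) were higher and 24 (6.58%) lower, while 7.00% of all features were higher and 7.92% lower. Without the 3 arrays of experiment 14 the member counts were 22 and 19, and those over all features 1304 and 1404, in place of 1423 and 1609. Of the 29 members that rose with Th1 against untreated, 24 were also higher than with Th17, and of the 26 that fell, 22 were also lower, with the Th1 arrays shared between the comparisons.

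AW011738 was 2.99 ± 0.29 higher with Th1 than with Th17 (adjusted p = 1.3e-05), 4933412E12Rik 2.73 ± 0.22 (adjusted p = 3.28e-06) and AI646519 1.71 ± 0.11 (adjusted p = 4.08e-07). At the other end Gm10941 gave -2.98 ± 0.31 (adjusted p = 1.95e-05), Lockd -2.96 ± 0.41 (adjusted p = 0.00016) and 2810025M15Rik -2.52 ± 0.13 (adjusted p = 8.18e-08). Members called here and not against untreated numbered 3, namely Mir17hg, D5Ertd605e and Gm5039. D5Ertd605e had 5.18, 6.24, 4.65 and 5.86 on Th1 arrays and 6.51, 7.75, 7.03 and 6.76 on Th17 arrays, a log2 fold change of -1.53 ± 0.37 (adjusted p = 0.00607), against -1.37 ± 0.37 for Th1 over untreated (adjusted p = 0.0106). Gm5039, a pseudogene, had 8.77, 9.13, 9.49 and 8.19 on Th1 arrays and 8.11, 8.06, 6.98 and 6.94 on Th17 arrays, a difference of 1.37 ± 0.34 (adjusted p = 0.00637) whose call was lost without single arrays. The difference was then 1.41, 1.29 and 1.17 without the Th1 array of experiment 12, 13 or 14, 1.19 and 1.18 without the Th17 array of experiment 14 or 16, and 0.99 without the 3 arrays of experiment 14. The call was also lost with normexp (0.88), with a floor of 50 (adjusted p = 0.0115), with no filter on dim features (adjusted p = 0.0201) and in a fit of the 8 arrays alone (adjusted p = 0.0176). The difference of Xist between the supernatants, -1.19 ± 0.41 for the first of its transcripts, was not called (adjusted p = 0.0342).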

How the data were processed

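The authors scanned 12 one-colour arrays, each from 1 RNA sample, and deposited the scanner output, which holds background-subtracted signal intensity per spot (Agilent Feature Extraction, design annotated on mm9). Control spots and spots marked as outliers were left out, spots of a probe were averaged, and values were quantile-normalised, scaled to a 75th percentile of 1500, floored at 15 and log2-transformed, which follows the study's methods in part. The methods normalised these arrays together with astrocyte arrays, which were not used here, and also excluded spots by their spread and pixel variation, which was not done here. The deposited value table, on a log2 scale, matched the same signals scaled and centred on medians of each probe and served as an alternative. Of 39429 probes, 20319 features (1 per transcript, well above background on at least 4 arrays) entered limma 3.58.1 (R 4.3.3) with a mean per group, with Benjamini-Hochberg adjustment over all features. A transcript was called at an adjusted p under 0.01 and over 2-fold. Genes, classes, neighbours and distances came from a RefSeq table of GRCm38.p6, and strands from the promoter windows of the same build.

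Members and lists were chosen with earlier results of these data known. Open to naming in a comparison were, of its called members, the 15 that rose most and the 15 that fell most, the 5 smallest p where under 10 were called, and all listed genes. Relatives of pseudogenes, Bcl2l11 and coding genes within 100 kb were chosen after values were seen, as were the remaining members named for their relatives or neighbours. A bound for a transcript not detected in a group sets the other group's mean against an average limit, which on each array is the lowest signal well above background or the transcript's own signal, whichever is higher. Experiment numbers pair the samples, because same-numbered arrays deviated together (correlations 0.243 to 0.631 in every pair of groups, over 20319 features). Alternatives were scaling, background correction, floor, filters, call rules, slide or experiment as a block, and each array left out. The normexp alternative, planned on mean spot signals, was run on median spot signals, which the files used here hold. Arrays limit precision by their number, 4 per group, and p-values cover the spread between these experiments.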

Additional observations from a re-analysis of the deposited data

Results flagged for a closer look

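Within a group of 4 arrays, 1 array lay apart from the other 3 by Dixon's test in 24 of 195 groups of values tested over 65 named members, where chance alone flags about 1 in 20. Each is given by its value and the nearest other value.

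On Th1 arrays, the Ftx value in experiment 14 was 8.38 (nearest 5.88) and Ftx on the Th17 array of the same experiment was 7.95 (nearest 6.07). Crnde in Th1 experiment 14 was 5.03 and AA388235 in Th1 experiment 16 was 4.48, both with the other 3 arrays at the floor of 3.91. In Th1 experiment 16, Kcnq1ot1 was 5.18 (nearest 3.93), 2010204K13Rik was 5.73 (nearest 4.56) and Airn was 9.85 (nearest 9.47). In Th1 experiment 12, BC051226 was 10.32 (nearest 9.51) and 1 Xist transcript was 6.55 (nearest 5.54). In Th1 experiment 13, Gm11110 was 9.29 (nearest 9.84) and Mir22hg was 8.46 (nearest 9.08).

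On Th17 arrays, Morrbid was 6.41 in experiment 16 (nearest 5.14), with Gm45351 at 8.45 (nearest 8.68) and 4933413J09Rik at 4.62 (nearest 5.36) on the same array. Gm10941 was 7.76 on the Th17 array (nearest 8.60) and 7.86 on the untreated array (nearest 8.56) of experiment 13. Airn was 9.57 on the Th17 array of experiment 13 (nearest 10.06), and Nron was 7.92 on that of experiment 14 (nearest 8.15).

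On untreated arrays, experiment 14 held Gm12216 at 5.97 (nearest 5.31), 2700099C18Rik at 8.18 (nearest 9.22) and Mir99ahg at 7.84 (nearest 7.10). The untreated array of experiment 16 held Neat1 at 15.58 (nearest 14.25), Dancr at 8.54 (nearest 7.49) and 1500015A07Rik at 7.26 (nearest 6.78).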

How the results depend on the processing

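Normexp background correction gave 14 members higher and 13 lower for Th1 against untreated, and 12 higher and 15 lower for Th1 against Th17. This setting changed the spot signal, the background correction and the offset together, and the cause was not tested. For Morrbid, Lppos, 5430405H02Rik, Macroh2a3, AA388235, 2010204K13Rik, 3300005D01Rik and Crnde the change against untreated then lay under 2-fold (0.65, 0.99, 0.97, 0.91, -0.48, -0.64, -0.70 and -0.44). Against Th17 the same held for Gm4759, Gm12216, Morrbid, 4933432I03Rik, Macroh2a3, Gm5039, 2010204K13Rik, AA388235, 3300005D01Rik and Crnde (0.94, 0.99, 0.54, 0.91, 0.89, 0.88, -0.77, -0.55, -0.73 and -0.48). Over all features it gave 1121 higher and 1009 lower. With no fold threshold, an adjusted p under 0.05 gave 73 higher and 75 lower against untreated and 78 higher and 72 lower against Th17. With an adjusted p under 0.01 these were 52 and 44, and 50 and 39. Counts over all features are not given for these rules.

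Leaving out 1 array at a time, 26 to 30 members were higher and 22 to 29 lower for Th1 against untreated, and 23 to 28 higher and 21 to 28 lower for Th1 against Th17. With experiment as a replicate block the counts were 31 and 31, and 26 and 28, with all 55 and 49 calls kept. Each alternative was followed for 122 results of named members, and with this block only the call on Neat1 changed among them. Other members named here, such as D5Ertd605e, H2-K2 and Dubr, and Mir17hg against Th17, were not among the 122 results. Th17 against untreated gave 0 members under each alternative. Of 2806 values of the 122 results under alternatives, 2762 kept direction and call and 40 lost the call. A call was gained by 2 (Neat1 and Snhg7), 2 moved to 0 at the floor of 50 (Gm13807 and Kcnq1ot1), and 0 reversed. Dim probes near the floor of 15 limit what can be read for AA388235, Crnde, AI504432, B630019K06Rik and Kcnq1ot1.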
